A study of Mus musculus with 2 samples.

Results

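The enzymes that make cyclic AMP and cyclic GMP, the phosphodiesterases that break them down and the subunits of protein kinase A (PKA) were described in mouse cerebral cortex, from 2 Affymetrix expression arrays. Each array held an equal mixture of cortical RNA from 3 male mice of 129/B6 strain at 4 weeks of age. The mice of the first pool were wild-type. The title of the second calls its mice KO and names no gene, and the gene was taken to be Gnmt. Gnmt encodes glycine N-methyltransferase, which uses S-adenosylmethionine to methylate glycine. The genotype entry of the second sample reads wild-type, so the pools were grouped by title, and the knockout allele is not described in the labels. The members were all genes with a single symbol in the probe annotation that began with Adcy, Gucy1 or Pde and an isoform name, or with Prkac or Prkar, leaving out Pde4dip and the Adcyap genes. This gave 43 genes of 18193 named on the array, with 110 probe sets of 45037: 10 adenylyl cyclases, 3 subunits of soluble guanylyl cyclase, 24 genes named as phosphodiesterases and 6 PKA subunits.

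Adenylyl cyclases in the cell membrane make cyclic AMP when receptors act on them through stimulatory G proteins, and some isoforms also respond to calcium and calmodulin. Cyclic AMP frees the catalytic subunits of PKA from its regulatory subunits, and PKA phosphorylates ion channels, receptors and the transcription factor CREB. Soluble guanylyl cyclase is the receptor of nitric oxide and makes cyclic GMP. Phosphodiesterases end both signals, and their isoforms differ in which nucleotide they cut and in what regulates them. In cortical neurons these enzymes are known for their roles in synaptic plasticity and memory.

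A gene was represented by its brightest probe set, the one with the highest mean log2 signal, and counted as measured where that probe set reached a floor of 64.2 units in both pools. Ratios are the knockout-titled over the wild-type signal, on the log2 scale, after centring on the median of all measured probe sets. There was 1 array per genotype and no replicate, so no difference could be tested, and a fold describes these pools alone. The error at hand is the spread between probe sets of a gene, with an SD of 0.58 (1.49-fold) over the 5375 genes with at least 2 measured probe sets. A single probe set that is 1.5-fold apart is thus about 1 such SD from 0. The median of all 12244 measured genes was -0.06.

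Signals of Gnmt itself, 10 units in wild-type and 21.5 units in knockout-titled RNA by its only probe set, were both under the floor and could not check the labels. Neuronal markers fixed for the tissue check were above the floor in both pools for 8 of 8 genes, with summed signals of 100535 and 87591 units. Of the 8, 7 were within 1.5-fold, as were 8485 of all 12244 measured genes. The exception, the neurofilament gene Nefl, had 12378 and 3633 units, 3.44-fold lower in knockout-titled RNA. Hormone genes of the anterior pituitary stood far apart, with Gh at 23223 and 200 units and a summed signal over 3 measured markers of 26439 and 667 units. Of 8 microglial markers, 5 were lower in knockout-titled RNA by at least 1.5-fold and 1 was higher, against 18.2% and 12.5% of all measured genes. Their median log2 ratio was -0.89, with summed signals of 11824 and 10582 units. Of 7 astrocyte markers, 4 were lower and 0 higher by 1.5-fold, against the same shares of all genes. Their median was -0.70, with summed signals of 49539 and 45790 units. Of 6 measured hippocampal markers, 3 were lower and 1 (Prox1, 2.61-fold) was higher by at least 1.5-fold, against the same shares. Their median was -0.52, with summed signals of 10068 and 8572 units. Of 5 measured oligodendrocyte markers 1 was lower and 0 higher by 1.5-fold, at a median of -0.16, and of 4 endothelial markers 1 and 0, at -0.27. Of 5 choroid plexus markers 0 were lower and 1 higher, at -0.13, and of 4 thalamic markers 0 and 1, at 0.01. Only 1 marker of retina and pineal was measured, Sag, at 105 and 64.5 units, the latter next to the floor. Its ratio was -0.71, or 0.16 after quantile normalization. Prl and Cga, also pituitary hormone genes, had 2351 and 2362 units in wild-type RNA and lay under the floor, at 9.7 and 6.5 units, in the other. In bulk RNA fewer cells of a type and less RNA per cell cannot be told apart, and the part of these cells in the values below was not tested.

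Of the 43 members, 36 were measured in both pools, 6 were under the floor in both and Pde6g reached it only in wild-type RNA. By brightest probe sets 6 of the 36 were at least 1.5-fold higher in knockout-titled RNA, against 12.5% of all measured genes, and 2 were at least 1.5-fold lower, against 18.2%. The higher genes were Adcy7, Adcy9, Pde1a, Pde4a, Pde7a and Prkar2a, and the lower genes were Pde6d and Pde9a. At 2-fold the counts were 2 higher (Adcy7 and Pde7a) against 3.47% of all genes, and 1 lower (Pde6d) against 6.75%. By its second brightest probe set Pde7a was 1.67-fold higher. Among the measured members 22 had a log2 ratio above 0 and 14 below, against 5615 and 6629 of all 12244 measured genes. The median over the measured members was 0.15. It was 0.26 after quantile normalization, -0.044 with no floor (43 members) and -0.055 by second brightest probe sets, which only 20 members have. The count of higher members was 8 after quantile normalization and after loess, against 13.4% and 13.1% of all genes. Prkacb and Adcy6 also passed 1.5-fold there. Members just inside and just outside the 1.5-fold mark were Adcy9 at 1.54-fold and Prkacb, Adcy6 and Adcy2 at 1.47-fold, 1.46-fold and 1.45-fold.

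**Figure D1:**
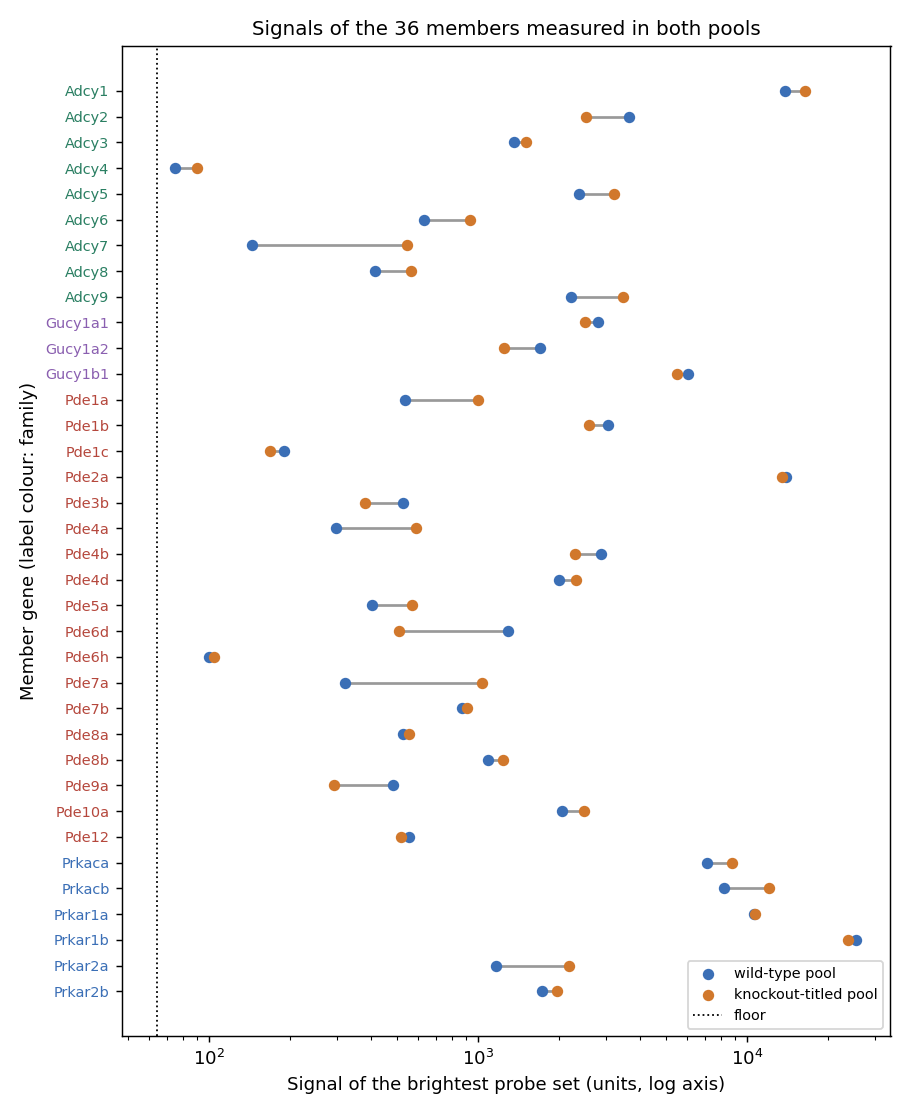
Signal of the brightest probe set of each of the 36 measured members in wild-type RNA (blue) and the knockout-titled pool (orange), 1 array each, on a log axis in units, with the floor dotted. The longest lines are those of Adcy7 (145 to 542.4 units), Pde7a (320 to 1038 units) and Pde6d (1297 to 509.1 units), while most pairs of points lie close together.

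Sequences upstream of the start of 4 members are shown because PKA acts on transcription through CREB, whose binding element is the palindrome TGACGTCA with the core TGACG. The 250 bases before the start, from RefSeq on GRCm38.p6, are given for Adcy9 and Adcy7, both higher in knockout-titled RNA, for Pde6d, the lowest member, and for Prkar1a, whose ratio was -0.01. The Adcy7 and Prkar1a windows, each from a gene with several, were picked because they hold the core or the palindrome. The 4 windows therefore do not show how cores relate to ratios. Capitals mark TGACG on either strand, so its complement reads CGTCA, and overlapping matches that form the palindrome are capitalised together. The windows are chr16:4420499-4420748 (minus strand), chr8:88282742-88282991 (plus strand), chr1:86582786-86583035 (minus strand) and chr11:109650699-109650948 (plus strand), in that order.
Adcy9: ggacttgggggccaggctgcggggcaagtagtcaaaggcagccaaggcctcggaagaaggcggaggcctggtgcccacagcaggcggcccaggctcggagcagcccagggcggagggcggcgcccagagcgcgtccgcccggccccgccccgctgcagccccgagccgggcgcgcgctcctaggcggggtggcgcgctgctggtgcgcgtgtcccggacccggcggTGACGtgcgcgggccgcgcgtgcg
Adcy7: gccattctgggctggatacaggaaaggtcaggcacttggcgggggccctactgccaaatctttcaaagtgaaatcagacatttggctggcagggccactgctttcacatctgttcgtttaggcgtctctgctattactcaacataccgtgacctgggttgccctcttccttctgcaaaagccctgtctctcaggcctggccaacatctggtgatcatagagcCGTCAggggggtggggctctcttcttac
Pde6d: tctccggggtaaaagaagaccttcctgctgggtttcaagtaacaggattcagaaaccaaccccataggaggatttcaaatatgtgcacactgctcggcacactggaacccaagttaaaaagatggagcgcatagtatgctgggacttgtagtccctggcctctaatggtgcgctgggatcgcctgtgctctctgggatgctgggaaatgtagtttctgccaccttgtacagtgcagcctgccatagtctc
Prkar1a: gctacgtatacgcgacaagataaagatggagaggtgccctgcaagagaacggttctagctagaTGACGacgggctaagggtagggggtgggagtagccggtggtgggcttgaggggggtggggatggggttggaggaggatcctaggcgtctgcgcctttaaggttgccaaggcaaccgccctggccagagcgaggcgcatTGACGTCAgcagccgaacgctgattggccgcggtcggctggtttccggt
The Adcy9 window held 1 core at position -24 from the start, and the Adcy7 window shown held 1 at -28 on the other strand. Adcy7 has 3 windows, and the other 2 held 0. The single Pde6d window held 0. The Prkar1a window shown held the palindrome at -49 and a further core at -187, and 3 of the 6 windows of this gene held no core. Windows of 300 bases, from 250 before to 50 after the start, were found for 34 of the 43 members, many with several starts. Of these 72 windows 18 (25%) held TGACG on either strand, against 20.8% of all 32851 windows. Counted by gene, 16 of the 34 members (47.1%) held it in at least 1 window, against 23% of all 27025 genes, with more windows per gene among the members. The palindrome TGACGTCA was in 2 of the 72 windows, both of Prkar1a and overlapping, against 1.79%. A match of letters describes the window and is not a measured binding site, and the array does not tell the starts of a gene apart.

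Among adenylyl cyclases, 8 of the 9 measured genes had a ratio above 0, against 5615 of all 12244 measured genes. The median of the 9 was 0.42, and 2 were at least 1.5-fold higher in knockout-titled RNA, against 12.5% of all genes. None was 1.5-fold lower, against 18.2%. After quantile normalization 7 of 9 were above 0 and the median was 0.52, and by second brightest probe sets, which 4 of them have, it was 0.24. Adcy9, a membrane isoform that is nearly insensitive to forskolin, had signals of 2218 and 3455 units in the wild-type and knockout-titled pools by its brightest probe set. Its other 3 probe sets gave 1946 and 3128 units, 1198 and 1776 units, and 875 and 1645 units. All 4 were thus higher in knockout-titled RNA, with log2 ratios from 0.56 to 0.90. They were also above 0 without centring, after quantile normalization and after loess, where the lowest was 0.57, 0.68 and 0.63.

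Adcy7, an isoform stimulated by G protein beta-gamma subunits and known from immune cells, had 145 units in wild-type RNA and 542.4 units in knockout-titled RNA, a 3.71-fold difference with a log2 ratio of 1.89. A second probe set was under the floor in wild-type RNA (23.2 units) and at 158.5 units in the other, at least 2.45-fold higher, where the bound is the signal over the floor after centring. The third gave 36.6 and 40.4 units, under the floor in both. The ratio of Adcy7 thus rests on a single probe set measured in both pools, of a type whose suffix marks that it can bind several transcripts. Of the 8 microglial markers, Cx3cr1 alone was 1.5-fold higher (87.2 and 343.6 units), while C1qa, C1qb, C1qc, P2ry12 and Tmem119 were lower.

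The calcium-stimulated isoforms Adcy1 and Adcy8 had ratios of 0.23 and 0.43. Adcy1 gave 13876 and 16434 units by its brightest probe set and 583 and 615.3 units by its other, within 1.2-fold in each case, and Adcy8 gave 412.6 and 561.2 units. Adcy3, known as the cyclase of olfactory cilia and neuronal primary cilia, had its 4 probe sets between 0.15 and 0.76, with 1355 and 1511 units by the brightest. The calcium-inhibited isoforms Adcy5 and Adcy6 had 2374 and 3205 units (0.42) and 631.3 and 930.2 units (0.55). A second Adcy5 probe set gave 768.3 and 718.8 units, on the other side of 0 at -0.11, and another was above the floor in knockout-titled RNA alone, at 78.6 units. Adcy2, an isoform stimulated by beta-gamma subunits, was below 0 by its only probe set, with 3638 and 2530 units and a ratio of -0.54. Adcy4 had 74.9 and 90.4 units, little above the floor, with a ratio of 0.26 that was -0.10 after quantile normalization, and Adcy10, the bicarbonate-sensing soluble isoform, was under the floor in both pools at 39.3 and 37.3 units.

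All 6 measured probe sets of the soluble guanylyl cyclase subunits had ratios below 0, between -0.52 and -0.15, although none was 1.5-fold lower. Gucy1a1 and Gucy1a2 encode alternative alpha subunits, and Gucy1b1 encodes the heme-carrying beta subunit that binds nitric oxide. Gucy1b1 had 6026 units in wild-type RNA and 5475 units in knockout-titled RNA by its brightest probe set, and 2569 and 1805 units by its other. Gucy1a1 gave 2799 and 2488 units, 463 and 330.1 units, and 234.5 and 189.2 units over its 3 probe sets. Gucy1a2 gave 1696 and 1249 units, with a second probe set under the floor in both pools. The median of the 3 genes was -0.18, which was -0.03 after quantile normalization, where Gucy1b1 turned to 0.04.

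Of the 24 genes named as phosphodiesterases, 18 were measured, with a median of 0.05. At least 1.5-fold higher in knockout-titled RNA were 3, against 12.5% of all measured genes, and at least 1.5-fold lower were 2, against 18.2%. The median was 0.06 without Pde12, an exonuclease of mitochondrial RNA poly(A) tails, and Pde6d, a carrier of prenylated proteins, neither of which cuts cyclic nucleotides. It was -0.15 by second brightest probe sets and -0.11 without suffixed probe sets, so the family shows no single direction.

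Pde7a, a phosphodiesterase specific for cyclic AMP, was the member with the most probe sets in a single direction. Its brightest probe set gave 320 units in wild-type RNA and 1038 units in knockout-titled RNA, a 3.22-fold difference. The other 6 gave 442.6 and 745.2, 343.4 and 679.6, 224.5 and 840.4, 251.7 and 735.1, 218.8 and 329.8, and 69.6 and 91.2 units. All 7 were higher in knockout-titled RNA, with log2 ratios from 0.38 to 1.89 and a median of 0.97. The lowest of the 7 was 0.02 after quantile normalization and 0.31 after loess. Its paralog Pde7b, which is enriched in striatum, gave 870.1 and 910.7 units by its brightest probe set and 76.9 and 69.8 units by its other, with ratios of 0.05 and -0.15.

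Among the other phosphodiesterases specific for cyclic AMP, Pde4a was higher and the best-measured probe sets of Pde4b and Pde4d were within 1.3-fold. These genes encode the rolipram-sensitive enzymes that end cyclic AMP signals in neurons. Pde4a gave 296.9 and 589.7 units by its only probe set, a 1.97-fold difference with a ratio of 0.98. Pde4b gave 2866 and 2294 units by its brightest probe set and 1682 and 1313 units by the second, with ratios of -0.33 and -0.37. Another Pde4b probe set gave 66 and 312.2 units, a ratio of 2.23 in the other direction, and a further one reached the floor, at 83.2 units in knockout-titled RNA alone. Pde4d gave 1996 and 2309 units (0.20) by its brightest probe set, while its other had 22.3 units in wild-type RNA and 482.7 units in knockout-titled RNA, at least 7.46-fold higher. Both genes are long, at 519.9 kb and 1302 kb, and make many transcripts, and which of these the lower-signal probe sets bind is not stated in the annotation. Pde8a (525.6 and 552.9 units) and Pde8b (1093 and 1235 units), which have high affinity for cyclic AMP, had ratios of 0.06 and 0.16, with a second Pde8b probe set at -0.45. The Pde3 enzymes are not specific for cyclic AMP and cut both nucleotides. Pde3b, which cyclic GMP inhibits and which is known from insulin action, gave 527.7 and 380.2 units (-0.48). Pde3a was under the floor in both pools by all 3 probe sets.

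Of the other phosphodiesterases that cut both nucleotides, Pde1a was higher and Pde2a was close to equal. The Pde1 enzymes are stimulated by calcium and calmodulin. Pde1a gave 534.7 and 997.3 units, a 1.85-fold difference with a ratio of 0.89, by its only probe set above the floor. Pde1b gave 3043 and 2578 units (-0.25) and Pde1c gave 190.5 and 168.6 units (-0.19), with the other 5 Pde1c probe sets under the floor in both pools. Pde2a, which cyclic GMP stimulates, gave 13998 and 13505 units by its brightest probe set, and its 3 probe sets lay between -0.14 and 0.32. Pde10a, the main phosphodiesterase of striatal spiny neurons, gave 2045 and 2476 units (0.26), but its other measured probe sets pointed both ways, at 455 and 329.8 units (-0.48) and 180.6 and 479 units (1.40). Of 10 measured markers of the striatum, 4 were lower in knockout-titled RNA by at least 1.5-fold and 0 were higher, against 18.2% and 12.5% of all measured genes. Their median was -0.32, with summed signals of 15152 and 12444 units. The part of striatal tissue in the Pde1b, Pde7b, Pde10a and Adcy5 values was not tested. Pde11a was under the floor in both pools.

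The phosphodiesterases that act on cyclic GMP went different ways. Pde9a, which has the highest affinity for cyclic GMP, gave 482.3 units in wild-type RNA and 290.9 units in knockout-titled RNA, 1.67-fold lower, by its only probe set. Pde5a, the target of sildenafil, gave 404.8 and 570.2 units (0.48) and 293.9 and 357.8 units (0.27), whereas another probe set was at 151.2 and 57.4 units, at least 2.37-fold lower. The photoreceptor genes Pde6a, Pde6b and Pde6c were under the floor in both pools, between 2.5 and 43.9 units. Pde6h, a cone inhibitory subunit, gave 100.1 and 104.5 units, and Pde6g, the rod inhibitory subunit, gave 96.9 and 53.5 units, at least 1.52-fold lower. Pde6d had 1297 and 509.1 units, 2.57-fold lower in knockout-titled RNA with a ratio of -1.36, by its only probe set. Pde12 gave 555.2 and 517.2 units, with its 3 probe sets between -0.18 and 0.01.

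All 6 PKA subunit genes were measured, and Prkar2a alone was 1.5-fold apart by the centred ratios, joined by Prkacb after quantile normalization (0.82) and after loess (0.68). The median was 0.23 by brightest probe sets, 0.41 after quantile normalization and -0.03 by second brightest probe sets. Prkar2a, a type II regulatory subunit that anchoring proteins hold at membranes, gave 1171 and 2177 units, a 1.84-fold difference with a ratio of 0.88, and 938.5 and 1215 units (0.36) by its second probe set. Prkar2b, the type II subunit that is prominent in brain, lay between -0.20 and 0.16 over its 3 probe sets, with 1736 and 1961 units by the brightest. Prkar1a, a type I subunit, gave 10625 and 10670 units, 3468.3 and 3467.5 units, and 179.3 and 161 units. These 3 probe sets lay between -0.17 and -0.01, and the brightest turned to 0.26 after quantile normalization. Prkar1b, the neuronal type I subunit, gave 25307 and 23669 units by its brightest probe set and had 5 probe sets between -0.74 and 0.15, with 4 of them within 1.2-fold. The catalytic subunit gene Prkacb gave 8191 and 12103 units (0.55) and 244.5 and 269.7 units (0.13). Prkaca gave 7079 and 8770 units (0.30) by its brightest probe set and 1634 and 1187 units (-0.47) by its other, so its probe sets differed in direction.

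**Figure D2:**
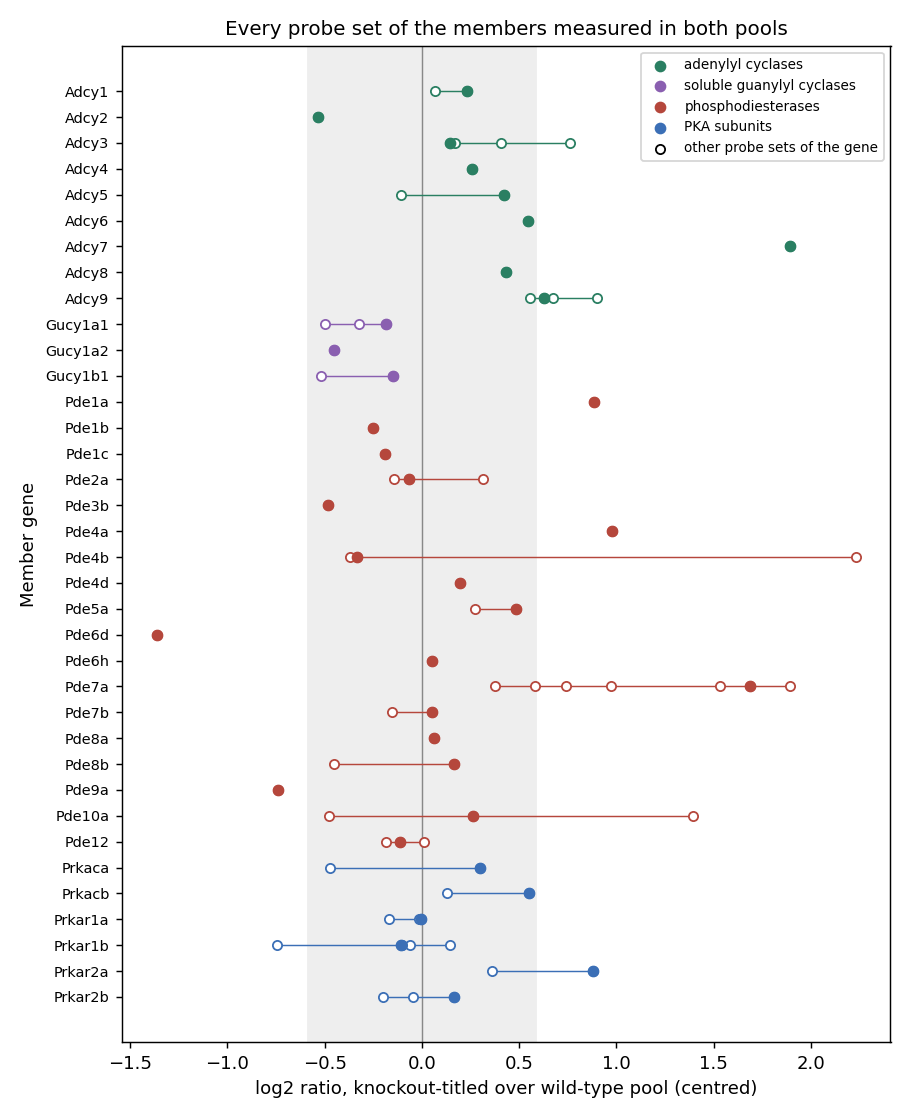
Log2 ratio of the knockout-titled over the wild-type pool for every probe set of the 36 measured members that reached the floor in both pools, with the brightest filled and the band marking ratios within 1.5-fold. The 7 probe sets of Pde7a and the 4 of Adcy9 all lie above 0, while the 3 of Pde4b and of Pde10a lie on both sides.

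Probe sets of a member agreed in direction for 10 of the 20 members with at least 2 measured, against 55.6% of all such genes. They were all above 0 for Adcy1, Adcy3, Adcy9, Pde5a, Pde7a, Prkacb and Prkar2a and all below 0 for Gucy1a1, Gucy1b1 and Prkar1a by the centred ratios. Under other scalings 3 of these genes had probe sets on both sides of 0: Prkar1a under all 3, and Gucy1b1 and Prkacb after quantile normalization. Among the 11 members with at least 3 measured probe sets, 3 (Adcy3, Adcy9 and Pde7a) were above 0 throughout, against 20.8% of such genes, and 2 (Gucy1a1 and Prkar1a) below throughout, against 18.5%. The spread between the brightest 2 probe sets had an SD of 0.23 over 20 member pairs, against 0.58 over all genes. This SD is taken around the mean difference and leaves out a shift shared by the pairs. In most member pairs the brightest probe set had the higher ratio, as in Pde7a (1.69 and 0.74) and Prkaca (0.30 and -0.47). In Adcy3, Adcy9, Pde12 and Prkar1b it had the lower. Dimmer probe sets, such as that of Pde4b at 2.23, are also left out. The smaller SD thus does not show that members were measured more precisely. Of the 75 member probe sets measured in both pools, 15 were at least 1.5-fold higher in knockout-titled RNA, against 16.5% of all named probe sets, and 3 at least 1.5-fold lower, against 18.1%. Probe sets above the floor in knockout-titled RNA alone numbered 5 of 110 (of Adcy5, Adcy7, Pde10a, Pde4b and Pde4d), against 7.48% of all named probe sets. None of these 5 was the brightest of its gene. Those above it in wild-type RNA alone numbered 2 (of Pde5a and Pde6g), against 4.07%. The 16 members with a single measured probe set, Adcy7, Pde1a, Pde4a, Pde6d and Pde9a among them, have no such check.

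Of the measured receptors that act on the cyclases 11 of 13 were within 1.5-fold, and of the G protein subunits 6 of 11. Of all 12244 measured genes 8485 were. Of 24 listed receptor genes 13 were measured, 2 were under the floor and 9 were not named in the annotation used here. Their median was -0.27, with 1 gene 1.5-fold higher, against 12.5% of all genes, and 1 lower, against 18.2%. Adcyap1r1, the receptor of the neuropeptide PACAP, gave 2207 and 3378 units by its brightest probe set, 1.52-fold higher in knockout-titled RNA. Its 3 measured probe sets lay between 0.08 and 0.60. The serotonin receptor gene Htr4 gave 147.8 and 90.6 units by its brightest probe set, 1.64-fold lower, while its other was at -0.02, close to equal. The dopamine receptor genes Drd1 and Drd2 had ratios of -0.08 and -0.0030. The 11 measured G protein subunits had a median of -0.11, or 0.08 after quantile normalization, and by 1.5-fold 3 were higher (12.5% of all genes were) and 2 lower (18.2% of all genes were). Gnal, the stimulatory alpha subunit of striatal and olfactory neurons, gave 2505 and 1058 units, 2.39-fold lower, and Gnas, the stimulatory alpha subunit of most cells, gave 19880 and 17707 units (-0.18). By brightest probe sets Gnao1, Gnb1 and Gnb4 had ratios of 0.71, 0.65 and 0.74 and Gnb5 had -0.64. The other probe set of Gnao1 gave -0.37 and that of Gnb5 gave 0.15, each in the opposite direction, while those of Gnb1, Gnb4 and Gnal kept theirs.

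Downstream of cyclic AMP, 3 of 8 PKA inhibitors and phosphoprotein effectors were lower by at least 1.5-fold, against 18.2% of all genes, and 0 were higher. Their median was -0.38. The lower genes were Ensa, an inhibitor of a protein phosphatase, with 3974 and 1961 units (-1.03), Arpp21, a phosphoprotein and RNA-binding protein of forebrain neurons, with 9574 and 5117 units (-0.92) by its brightest probe set, and Ppp1r1b, which encodes DARPP-32, with 1847 and 1120 units (-0.73). The 4 Arpp21 probe sets pointed both ways, from -1.31 to 2.19, whereas both of Ensa were lower. Ppp1r1b, with a single measured probe set, is also on the striatal marker list. The PKA inhibitor genes Pkia, Pkib and Pkig had ratios of -0.35, 0.37 and -0.41. The 12 measured A-kinase anchoring proteins, which tether PKA near its targets, had a median of 0.10. By 1.5-fold 1 of them was higher, against 12.5% of all genes, and 3 were lower, against 18.2%. Akap12 gave 817.7 and 371 units, 2.22-fold lower, Akap13 and Akap9 had -0.67 and -0.64, and Akap7 had 0.71. Only 3 of 12 listed effectors gated by cyclic nucleotides were measured: Rapgef3, an exchange factor activated by cyclic AMP, with a ratio of 0.60, and the channel genes Hcn3 and Hcn2 with 0.70 and -0.60.

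In the cyclic GMP pathway 10 listed genes were measured, and their median was -0.21. By the 1.5-fold mark 1 was higher, against 12.5% of all genes, and 1 lower, against 18.2%. Nos1ap, an adaptor of neuronal nitric oxide synthase, gave 1794 and 2761 units (0.61), and Npr3, the clearance receptor of natriuretic peptides, gave 298.4 and 143.6 units (-1.07). Nos1, the neuronal synthase gene, gave 1009 and 865.2 units (-0.23), and the cyclic GMP-dependent kinase genes Prkg1 and Prkg2 had 0.37 and -0.16. Guca1b, an activator of retinal guanylyl cyclase, had 106.3 units in wild-type RNA and 16.8 units, under the floor, in the other, while the natriuretic peptide gene Nppb had 7 and 84.6 units.

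**Figure D3:**
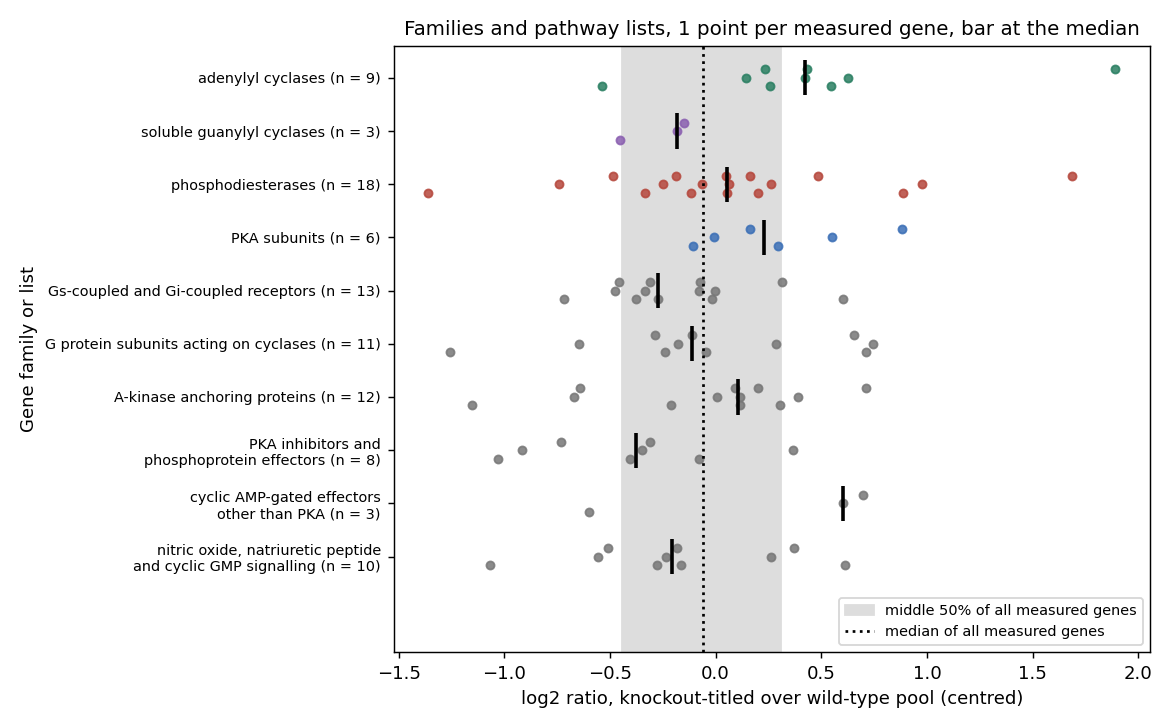
Log2 ratio of the knockout-titled over the wild-type pool for each measured gene of the 4 families (coloured) and of the 6 pathway lists (grey), with a bar at each median, the middle 50% of all measured genes shaded and their median dotted. The highest median is that of the 3 cyclic AMP-gated effectors, at 0.60, followed by the adenylyl cyclases at 0.42, and the lowest is that of the PKA inhibitors and phosphoprotein effectors, at -0.38; the band shows the spread of single genes, not of medians.

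The members are long genes, and over all genes the ratios were higher for longer genes. The median length of the 36 measured members was 97.2 kb in RefSeq on GRCm38.p6, against 24.9 kb over all genes with a length, and 23 of the 36 lay in the longest of 4 length groups that hold equal numbers of genes. In that group the median ratio was 0.03 over all genes and 0.16 over the members, and in the next longest group it was -0.02 and -0.15 (7 members). In the longest group 15.8% of all genes were at least 1.5-fold higher in knockout-titled RNA and 15.2% at least 1.5-fold lower, and the members there had 3 higher (Adcy9, Pde1a and Pde7a) and 1 lower (Pde9a). In the next longest group 3 of 7 members were higher (Adcy7, Pde4a and Prkar2a), against 13.2% of all genes there, and 1 was lower (Pde6d), against 17%. The part of gene length in the values of the members was not tested.

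**Figure D4:**
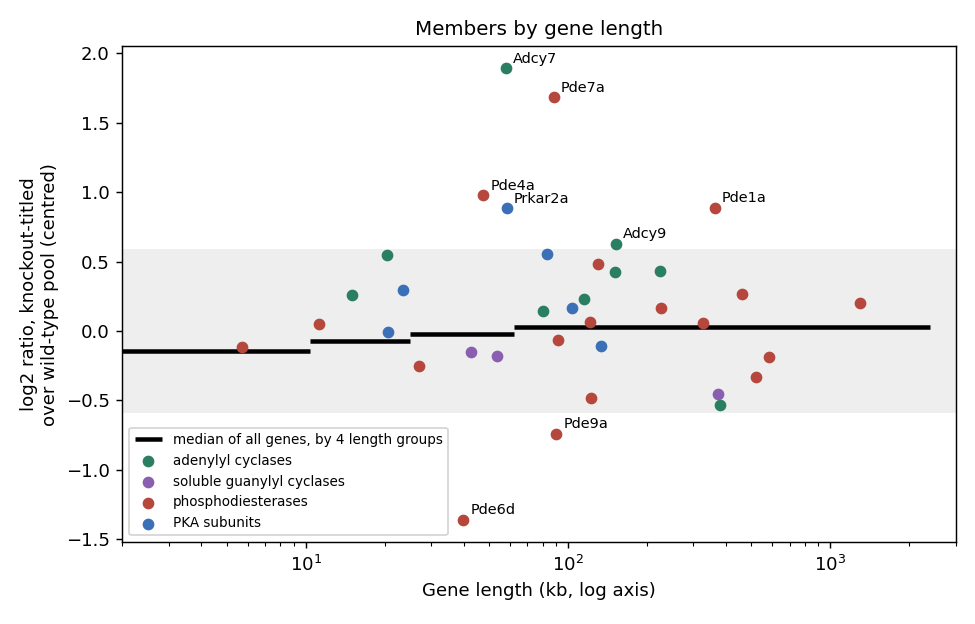
Log2 ratio of the knockout-titled over the wild-type pool against gene length in kb (log axis) for the 36 measured members, coloured by family, with black lines at the median of all genes in each of the 4 length groups and the band marking ratios within 1.5-fold. The lines step up from -0.15 to 0.03, and the members outside the band, named in the plot, are at least 39.8 kb long.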

How the data were processed

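The authors deposited linear intensities, 1 for each probe set on each array. The submitters' processing notes name GCOS (Affymetrix software); its version and algorithm are not stated in the labels, and no detection calls were used. Both deposited arrays had a mean of 500 units after trimming 2% at either end, so they were scaled before deposit. Their medians were 92 and 124.9 units. The floor was the 40th percentile of the non-control signals, and log2 ratios were centred by their median over measured probe sets (0.01). Of 45037 probe sets, 34945 had 1 gene symbol, 932 several and 9160 none, from the platform annotation; 34741 matched RefSeq gene identifiers of GRCm38.p6, as did all 43 members. Only 1 array per group was available, so no p-value was calculated, and this number limits the precision. Every member is accounted for, and pathway list genes are named where they are at least 1.5-fold apart by brightest probe set. A few more list genes were named for their role after their values were seen. Marker lists are given by counts and medians, and only some of their genes are named. Members and lists were chosen with earlier results of these data known. The calculation was tested on simulated data with known shifts. Alternatives covered the floor, the scaling and the probe set standing for a gene. Leaving out Pde12 and Pde6d was an alternative chosen after seeing the data. Calculations used pandas 2.3.3 and numpy 2.4.6 in Python 3.11.15, with statsmodels 0.14.6 for loess and matplotlib 3.10.9 for plots.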

Additional observations from a re-analysis of the deposited data

How the results depend on the processing

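The median over all measured members was -0.044 with no floor, 0.26 after quantile normalization, 0.019 with the median of a gene's probe sets, -0.055 by second brightest probe sets and 0.054 without suffixed probe sets. The phosphodiesterase median was -0.11 with no floor, -0.15 by second brightest probe sets and -0.11 without suffixed ones, and it was -0.06 with the median of a gene's probe sets. The PKA median was -0.030 with the median of probe sets and by second brightest probe sets, and -0.0057 without suffixed ones. The adenylyl cyclase median stayed above 0 under all 9 settings tried, between 0.24 and 0.52. Members at least 1.5-fold higher numbered 2 of 20 by second brightest probe sets, against 19.4% of all genes under that setting. Without suffixed probe sets they numbered 3 of 31, against 13.1%. Members at least 1.5-fold lower numbered 7 of 43 with no floor, against 27.2%, and 0 of 20 by second brightest probe sets, against 19.1%. Adcy7, Pde1a and Pde4a have no measured probe set without a suffix. Adcy9 dropped below 1.5-fold with the lower floor (0.58) and with no floor (0.52), and Prkar2a to 0.36 by its second brightest probe set. Pde7a stayed above 1.5-fold but fell under 2-fold, to 0.97 with the median of its probe sets and 0.74 by its second brightest. None of the 8 members 1.5-fold apart reversed under the settings that gave a value. Adcy7, Pde1a, Pde4a, Pde6d and Pde9a have a single measured probe set each, so only the floor and the scaling could change their ratios. A reversal was hardly possible for them, and its absence adds no support. No paired analysis was possible because each group has 1 array. Near the floor a signal is hard to tell from background, which limits Adcy4, Pde6h and the dimmer probe sets.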
